A study of Mus musculus with 52 samples.

Results

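RNA levels of glycolysis and hypoxia response genes were compared across 13 clones of Cilia-APEX-IMCD3 cells, a mouse inner medullary collecting duct line with a peroxidase directed to the primary cilium. The set is a list of 40 genes chosen by name, and all 40 were found among the 24421 gene symbols of the count files. Each clone was sequenced as 4 libraries, 52 in all, which the study calls technical replications. In the ciliated state there were 3 mutant clones (Wdr34 clone 1, Wdr34 clone 3 and Wdr60) beside the 4 controls A4, D8, G7 and H12. In the non-ciliated state there were 2 mutant clones (Wdr34 and Wdr60) beside the 4 controls AB, 1, 2 and 3. Wdr34 and Wdr60 encode the intermediate chains of dynein-2, the motor of retrograde intraflagellar transport. Mutant clones were made with the cytosine base editor BE4-Gam and are labelled homozygous. The study names the changes Wdr34 p.Arg183Trp, Wdr34 p.Gly394Ser and Wdr60 p.Ala911Val, and the labels do not say which Wdr34 change each of the ciliated clones carries. It also reports unintended heterozygous changes, a further missense change of Wdr34 in the p.Gly394Ser clone and a synonymous one in the Wdr60 clone. Control clones received the same editor and a guide vector without a target. Every line grew from a single sorted cell, so that each mutant is represented by at most 1 clone in each state. The study states that Wdr34 p.Gly394Ser was not among the non-ciliated clones. The study describes 4 control and 3 mutant clones for both states together, and the labels do not tie a ciliated sample to a non-ciliated one. The 13 are therefore clones as named within a state, some may be the same line in both states, and tests across states take them as independent. The methods of the study give 0.2% serum for 50 h for ciliation and 10% serum for growth, whereas the labels name the same serum for all samples. Cilia, serum and the time of sequencing therefore cannot be told apart between the states.

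Cells that lack oxygen switch on a common set of genes through the hypoxia-inducible factors, of which the alpha subunits are marked for destruction by oxygen-dependent prolyl hydroxylases and bind DNA together with Arnt. The targets raise glucose uptake and glycolysis, turn pyruvate to lactate, export acid, remove mitochondria, modify collagen and call for new vessels through Vegfa, the vascular endothelial growth factor. The renal inner medulla is poor in oxygen, and its collecting duct cells rely on glycolysis to a large extent. Many of these genes also answer to other signals, among them Myc, growth factors and nutrient stress.

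Many targets of these factors hold the core letters ACGTG or GCGTG near the start site, and RefSeq promoters of GRCm38.p6 (300 bases around the first listed start of a gene) were searched for both cores on either strand. A promoter was listed for 37 of the 40 genes, Ero1l being listed as Ero1a. At least 1 core stood in 29 of the 37 promoters (78.4%), against 11835 of 27018 promoters of all genes (43.8%). Cores outside the overlapping letters CACGTG, which other factors also bind, were in 29 members (78.4%) and in 40.5% of all promoters. At least 2 cores were in 23 members (62.2%) and in 20.8% of all promoters. Since CACGTG matches a core on both strands, each CACGTG counts as 2 cores and reaches this number alone. The promoters of Ldha and Bnip3, whose slopes on Vegfa passed the test in ciliated clones, of Slc2a1, which passed it over all clones, and of Egln3, which was high in single clones, are printed 5′ to 3′ with every core in capitals, also where it is read on the other strand.
Ldha (chr7:46845554-46845853, plus strand): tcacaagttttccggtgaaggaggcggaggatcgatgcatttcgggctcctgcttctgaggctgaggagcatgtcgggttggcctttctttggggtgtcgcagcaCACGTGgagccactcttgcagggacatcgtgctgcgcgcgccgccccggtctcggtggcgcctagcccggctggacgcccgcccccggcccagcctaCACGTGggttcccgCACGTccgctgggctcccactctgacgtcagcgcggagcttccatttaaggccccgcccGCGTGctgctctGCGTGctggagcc
Bnip3 (chr7:138909457-138909756, minus strand): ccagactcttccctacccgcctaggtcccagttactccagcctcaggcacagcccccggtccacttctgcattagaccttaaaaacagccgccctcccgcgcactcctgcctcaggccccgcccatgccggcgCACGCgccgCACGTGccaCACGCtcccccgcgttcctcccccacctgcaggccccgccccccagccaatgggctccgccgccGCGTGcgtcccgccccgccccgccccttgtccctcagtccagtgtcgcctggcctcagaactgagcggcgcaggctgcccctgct
Slc2a1 (chr4:119108495-119108794, plus strand): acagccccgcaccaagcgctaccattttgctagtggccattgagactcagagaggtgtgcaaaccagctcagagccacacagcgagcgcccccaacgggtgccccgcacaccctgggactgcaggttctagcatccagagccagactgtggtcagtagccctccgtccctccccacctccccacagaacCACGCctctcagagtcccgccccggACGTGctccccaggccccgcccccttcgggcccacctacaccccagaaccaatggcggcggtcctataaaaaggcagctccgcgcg
Egln3 (chr12:54203825-54204124, minus strand): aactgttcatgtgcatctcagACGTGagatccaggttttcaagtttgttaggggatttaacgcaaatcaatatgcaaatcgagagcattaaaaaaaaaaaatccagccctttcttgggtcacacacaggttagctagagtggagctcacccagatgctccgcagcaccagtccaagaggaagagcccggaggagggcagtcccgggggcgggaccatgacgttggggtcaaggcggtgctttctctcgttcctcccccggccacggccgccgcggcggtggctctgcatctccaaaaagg
With each CACGTG counted as 2, there were 7 cores in the Ldha promoter, 5 in that of Bnip3, 2 in that of Slc2a1 and 1 in that of Egln3. Outside CACGTG, the promoters of Ldha and Bnip3 held 3 cores each. None stood in this window of Vegfa or of Hk1, Gpi1, Aldoa, Tpi1, Eno2, Pkm, Car12 and Mxi1. A core is a match of letters and no measured binding site.

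Library totals ran from 14816218 to 28084979 counts, and no 2 libraries held identical values. Levels are given as CPM (counts divided by the library total, scaled by TMM over all 52 libraries), as the mean ± SD of the 4 libraries of a clone. The study calls the 4 libraries of a clone technical replications, and the sources do not say whether they share an RNA or a culture. This SD is therefore no spread between clones, and the tests between groups used the 13 clones as samples. CPM does not correct for gene length, so that levels are compared between clones only. A4 library 1 stood apart from the other 3 of its clone: 31 of 38 members measured were lowest there, against 33.1% of all genes, with Slc2a1 at 317 CPM against a mean of 1015 in the others. Vegfa was also lower in that library, at 71.2 CPM against a mean of 158 in the others. Ciliated Wdr60 library 2 was low as well, with a median of −0.37 (log2) over the members against the mean of the other 3. Vegfa was at −0.46 by the same measure. Above their mates were A4 library 3 (members 0.36, Vegfa 0.44), A4 library 4 (0.20, 0.43) and ciliated Wdr60 library 4 (0.31, 0.39). Opposite signs were found in H12 library 1 (−0.10, 0.24) and AB library 1 (0.07, −0.24), among others. The relation of Vegfa with the members within clones was not tested. Over the 13623 genes tested in ciliated clones, 8.89% were more than 1 (log2) away from the mean of the other 3 libraries in non-ciliated AB library 1, 6.61% in ciliated Wdr60 library 2, 6.60% in non-ciliated Wdr60 library 1 and 6.06% in A4 library 1, against at most 4.11% in any other library. In the members the median was 0.07 for AB library 1 and −0.10 for non-ciliated Wdr60 library 1. Collecting duct markers summed to 2110 to 3735 CPM in 10 clones, and to 1055 in ciliated Wdr34 clone 3, 539 in G7 and 514 in non-ciliated control 2. In the 10 clones most of the sum came from the epithelial genes Krt8, Krt18, Cdh1 and Epcam. Not all markers of the list were low in G7 and non-ciliated control 2. Pax2 and Hoxb7 were the highest of their state in G7 (315 and 84.9 CPM) and in non-ciliated control 2 (280 and 55.9 CPM). Aqp2, the water channel that defines principal cells, was at 0 in 12 clones and at 0.0157 CPM in the other. Of the other markers, endothelial ones summed to at most 0.328 CPM and fibroblast ones to at most 5.73 CPM, except for 31.6 CPM in ciliated Wdr34 clone 3, where Dcn reached 29.1 CPM. The summed immune markers came mainly from Csf1r, at 169 to 302 CPM in ciliated and 15.9 to 48.8 CPM in non-ciliated clones. In bulk RNA, a change in the share of cells that express a gene and a change in the level per cell cannot be told apart.

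The members differed widely between clones of the same state, among them the genes of glucose uptake and its first step. Slc2a1, the basal glucose transporter, was at 841 ± 67.5 CPM in D8 and 840 ± 367 in A4, and at 191 ± 2.88 in Wdr34 clone 3, 125 ± 1.02 in Wdr34 clone 1, 119 ± 35.9 in Wdr60, 78.7 ± 2.26 in H12 and 29.9 ± 1.87 in G7. Hk2, the inducible hexokinase that traps glucose in the cell, was at 390 ± 41.2 CPM in D8 and 305 ± 164 in A4, 48.7 ± 2.36 in Wdr34 clone 1, 32.8 ± 10.6 in Wdr34 clone 3, 27.7 ± 8.42 in Wdr60, 9.99 ± 1.36 in H12 and 1.95 ± 0.449 in G7. Both genes were high in D8 and A4 and lowest in G7, and the 3 mutant clones lay between the controls. In non-ciliated clones the order was another: Hk2 was highest in control 3 (336 ± 15.3 CPM) and control 1 (266 ± 12.8), followed by Wdr34 (185 ± 9.38), AB (99.98 ± 6.63), Wdr60 (62.9 ± 3.51) and control 2 (46.7 ± 1.79). Slc2a1 was at 293 ± 7.46 CPM in control 1 and 276 ± 7.48 in control 3, at 178 ± 7.39 in AB, 137 ± 3.20 in Wdr34, 102 ± 2.40 in control 2 and 95.2 ± 5.24 in Wdr60.

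A test of differences among the clones of a state took libraries as samples and asked only whether clones differ by more than the libraries of a clone (edgeR, adjusted p under 0.05 and at least 2-fold between the highest and the lowest clone). It called 32 of 38 members in ciliated clones, against 40.8% of all genes tested, and 16 of 37 in non-ciliated clones, against 30.7%. In ciliated clones it called 10 of 12 genes of glucose uptake and the preparatory steps of glycolysis, 4 of 5 of the payoff steps, Ldha and Pdk1 at the fate of pyruvate, the carbonic anhydrase Car12, 3 of 4 mitochondrial genes, the oxygen sensor Egln1, 5 of 5 genes of collagen hydroxylation and oxidative folding, and 4 of 5 of signalling and chromatin. Car9 and Egln3 are counted among the 32, and Egln3 among the 16, but most of their counts are in 1 clone of the state and their calls are not read as a test. The 6 that it did not call were Hk1, Gpi1, Pkm, Slc16a3, Bnip3l and Mxi1. Leaving out Egln3 and Car9, the widest ratios were 197 for Hk2 (adjusted p = 5.17e-16), 28.4 for Slc2a1, 21.8 for Pfkfb3, 18.8 for Ak4, 15.5 for Ddit4 and 13.4 for Car12. Pfkfb3, which makes the activator of phosphofructokinase, was at 16.3 ± 1.93 CPM in D8 and 0.746 ± 0.266 in G7. Ak4, a mitochondrial adenylate kinase, was at 23.3 ± 8.69 CPM in A4 and 1.27 ± 0.468 in G7. Ddit4, an inhibitor of mTORC1 signalling, was at 313 ± 117 CPM in A4 and 19.8 ± 8.59 in G7. Car12, a carbonic anhydrase of the cell surface, was lowest in D8 (5.67 ± 0.71 CPM) and highest in Wdr34 clone 3 (77.0 ± 3.0), with 25.6 ± 2.56 in A4. In non-ciliated clones the widest ratios next to Egln3 were 7.23 for Hk2 (adjusted p = 2.70e-22), 6.46 for Pfkfb3, 3.87 for Eno2, the neuronal enolase, 3.47 for Car12, 3.08 for Slc2a1, 2.94 for Ak4 and 2.73 for Ddit4.

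**Figure D1:**
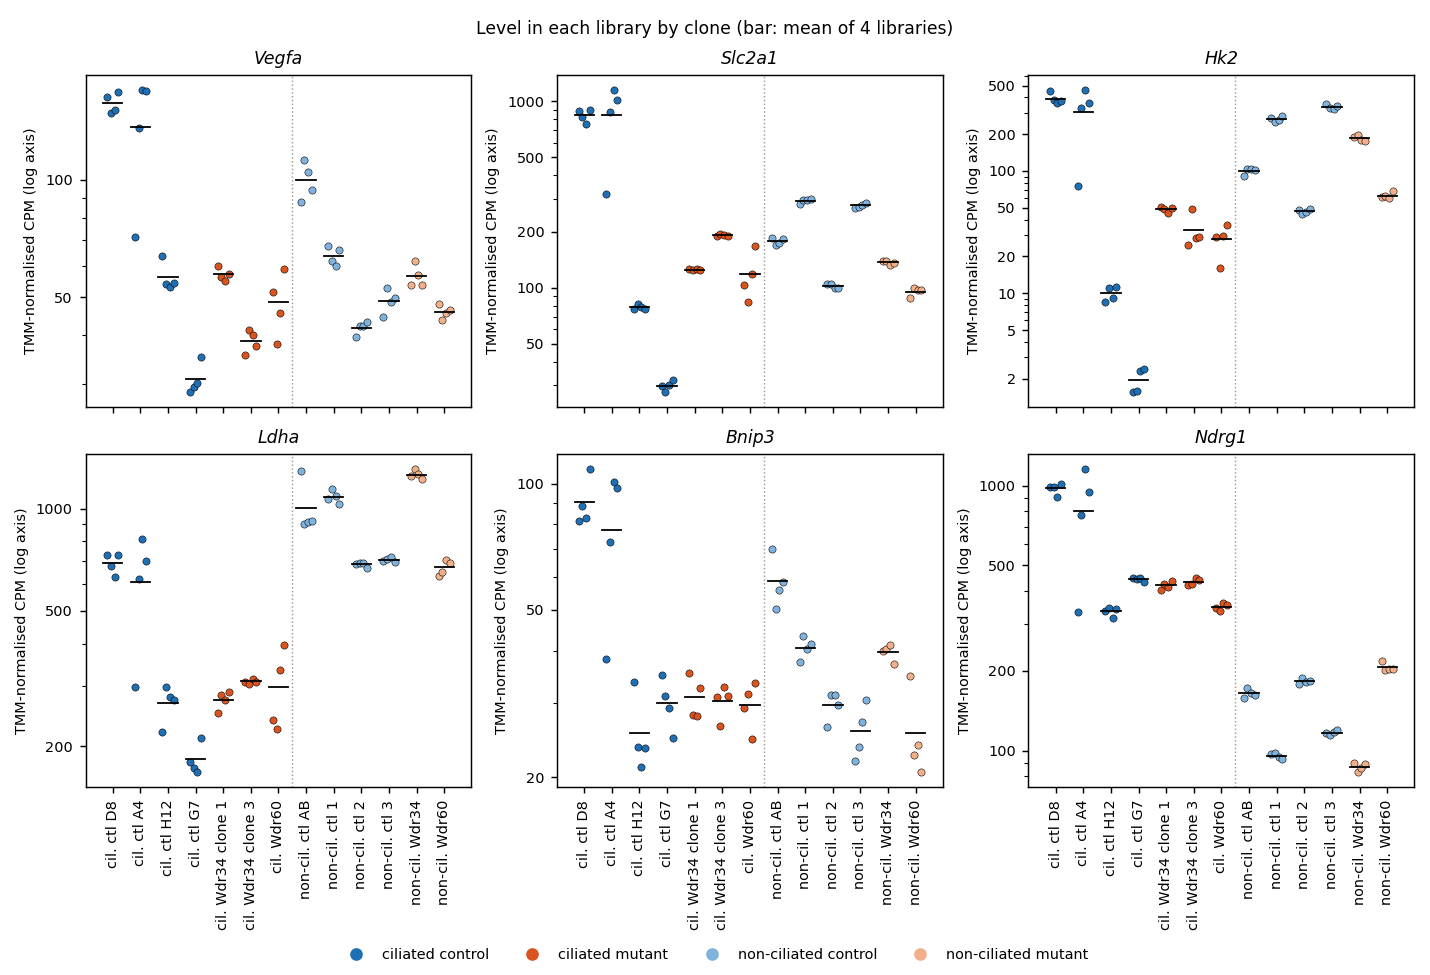
CPM of Vegfa and 5 members (log axis) in each of the 4 libraries of the 13 clones, with a bar at the mean of a clone. In D8 and in 3 of the 4 A4 libraries all 6 genes lie above every other ciliated clone, with Slc2a1 at 753 CPM or more.

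The question whether clones with high Vegfa also run a hypoxia program was addressed first in ciliated cells. Vegfa was at 158 ± 9.41 CPM in D8 and 137 ± 46.4 in A4, and at 57.2 ± 2.24 in Wdr34 clone 1, 56.3 ± 5.0 in H12, 48.5 ± 8.91 in Wdr60, 38.5 ± 2.54 in Wdr34 clone 3 and 30.8 ± 2.90 in G7. D8 and A4 form a cluster of their own, the lower of them being 2.39-fold above the next clone, so that no pooled correlation over the 7 clones is given. In 24 of 38 members D8 and A4 were the 2 highest of the 7 clones (63.2%), as against 12.8% of all genes tested. They were the 2 lowest in 1 member, Pfkm, against 12.7% of all genes. The 24 came from several roles: Slc2a1, Hk2, Pfkfb3, Pfkfb4, Pfkl and Aldoa from the first steps of glycolysis, Gapdh, Pgk1, Pgam1 and Pkm from the payoff steps, Ldha and Slc16a3 for lactate and its export, Bnip3, Higd1a and Ak4 of mitochondria, Egln1, P4ha1, P4ha2, Plod2 and Ero1l, and Ndrg1, Ankrd37, Ddit4 and Kdm3a. Gpi1, Tpi1, Eno2, Pdk1 and both carbonic anhydrases were not among them. Taking the lower of D8 and A4 against the highest of the other 5 clones, the ratio was 6.27 for Hk2, 4.40 for Slc2a1, 2.50 for Bnip3, 1.96 for Ldha, 1.81 for Ndrg1, 1.74 for Gapdh, 1.70 for Ero1l and 1.64 for Ankrd37. It was smallest for Aldoa and Pfkl (1.04 each), Slc16a3 (1.05) and Higd1a, Kdm3a and Pkm (1.13 each), where the gap to the next clone was smaller than the SD of the A4 libraries. The gap was also smaller than that SD for P4ha1, P4ha2, Pgk1, Ak4, Egln1, Pgam1, Ddit4 and Ankrd37. The other 14 members measured did not share this order. Pdk1, the kinase that closes off pyruvate dehydrogenase, was highest in H12 (87.3 ± 2.06 CPM) and Wdr60 (86.2 ± 11.2), with 82.3 ± 5.55 in D8 and 66.7 ± 10.5 in A4. Mxi1, an antagonist of Myc, was highest in G7 (263 ± 17.7 CPM) and at 136 ± 7.96 in D8 and 149.6 ± 17.3 in A4.

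**Figure D2:**
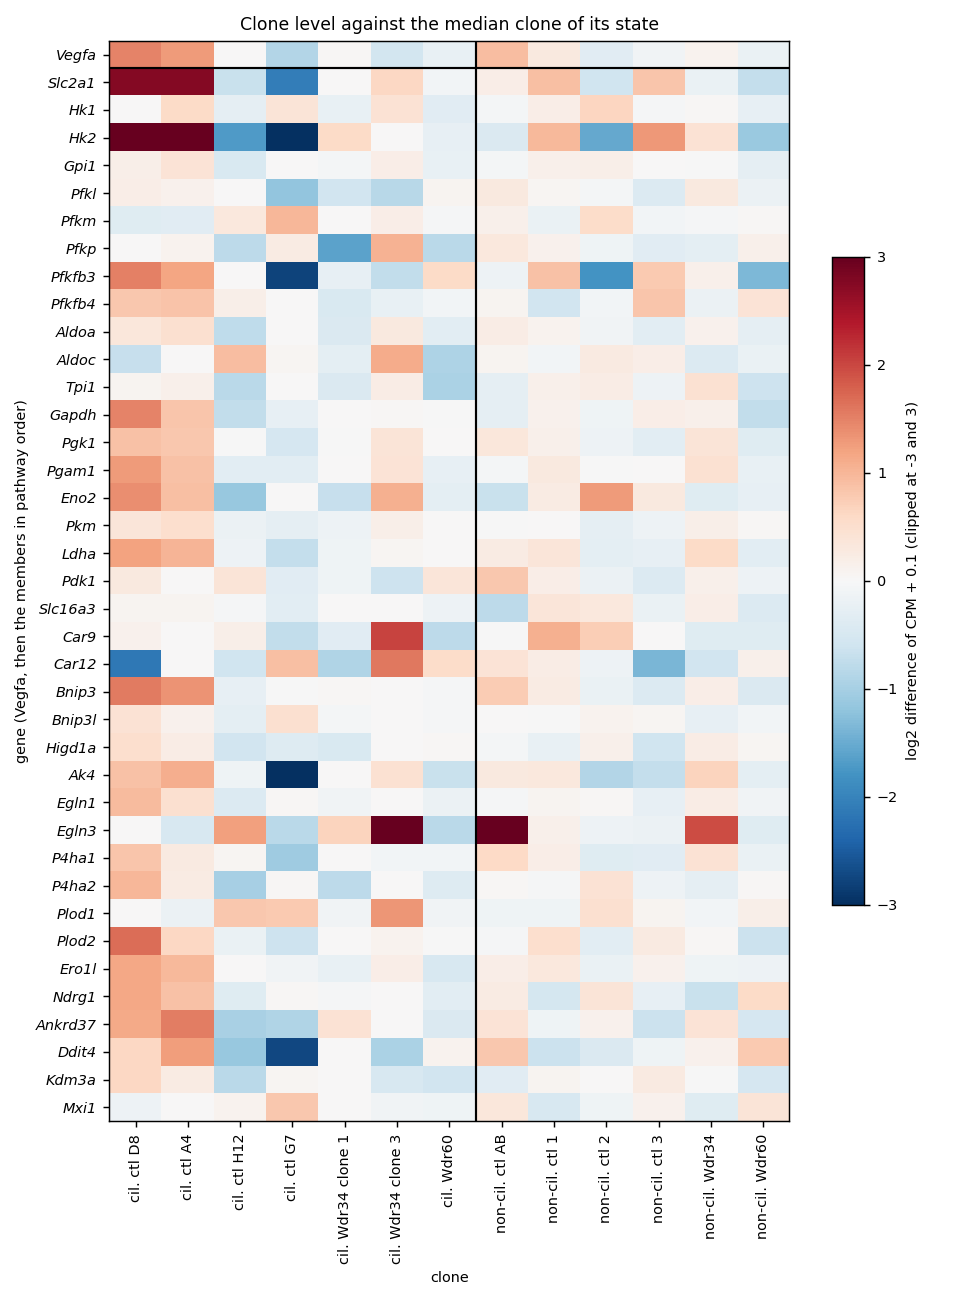
Log2 difference of CPM + 0.1 of Vegfa and 38 members from the median clone of the same state, for the 13 clones, with the colour scale cut at ±3. D8 has 13 members more than 1 above the median (5.02% of all genes), A4 has 8 (2.61%) and Wdr34 clone 3 has 7 (6.05%). G7 has 7 more than 1 below it, for which no share of all genes was taken.

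A slope of each gene on Vegfa was fitted over the 7 ciliated clones with edgeR, as the log2 change per doubling of Vegfa. The slope of 2 of 38 members passed the test and both rose with Vegfa, against 0.521% of all 13623 genes tested. None was called lower, against 0.132% of all genes. DESeq2 called 17 members higher, against 6.89% of all genes, and Car12 and Pfkm lower, against 6.03%. Ldha, the lactate dehydrogenase subunit that turns pyruvate to lactate, had a slope of 0.71 ± 0.10 (SE, adjusted p = 0.0442), and Bnip3, a receptor for the removal of mitochondria, 0.77 ± 0.12 (adjusted p = 0.0485). Ldha was at 692 ± 48.4 CPM in D8 and 608 ± 222 in A4, and at 310 ± 4.61 in Wdr34 clone 3, 299 ± 81.9 in Wdr60, 273 ± 16.9 in Wdr34 clone 1, 268 ± 33.8 in H12 and 183 ± 19.6 in G7. Bnip3 was at 90.2 ± 12.2 CPM in D8 and 77.4 ± 29.0 in A4, and the other 5 clones lay close together between 25.5 ± 5.61 in H12 and 31.0 ± 3.62 in Wdr34 clone 1. Over all members measured, 30 of 38 slopes were positive with a median of 0.40, against a median of −0.02 over all genes. At an unadjusted p under 0.05 there were 22 members, 19 of them positive, and 22.7% of all genes.

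By role, positive slopes at an unadjusted p under 0.05 were found in 4 of 5 payoff genes, 3 of 5 genes of collagen hydroxylation and oxidative folding, 5 of 12 genes of uptake and preparatory steps and 4 of 5 of signalling and chromatin. They were also found in 1 of 3 genes of pyruvate and lactate, 1 of 4 mitochondrial genes, 1 of 2 oxygen sensors and neither carbonic anhydrase, and in 10.8% of all genes. Pfkm, Plod1 and Car12 had negative slopes at such a p, as had 11.9% of all genes. Slc2a1 had a slope of 1.61 ± 0.31 (adjusted p = 0.0542), Hk2 of 2.31 ± 0.45 (adjusted p = 0.0543) and Plod2, a lysyl hydroxylase that sets collagen crosslinks, of 0.77 ± 0.14 (adjusted p = 0.0538). Among the widely used hypoxia genes, Ndrg1, a stress-induced gene of differentiation, had 0.56 ± 0.13 (adjusted p = 0.0761), the glycolytic kinase Pgk1 0.45 ± 0.11 (adjusted p = 0.0861), Ankrd37, a target of hypoxia-inducible factor, 0.91 ± 0.23 (adjusted p = 0.0866) and Pdk1 0.20 ± 0.15 (adjusted p = 0.453). The slopes at the low end were −0.46 ± 0.12 for Pfkm, the muscle subunit of phosphofructokinase (adjusted p = 0.0966), −0.91 ± 0.36 for Car12, −0.46 ± 0.19 for Plod1, another lysyl hydroxylase, −0.21 ± 0.12 for Mxi1 and −0.47 ± 0.40 for Aldoc, the brain aldolase. The hydroxylase Egln3 had −2.89 ± 1.46 (adjusted p = 0.281) and Car9 −0.54 ± 0.70 (adjusted p = 0.676). Most ciliated counts of both genes were in Wdr34 clone 3, and their p-values are not read as a test.

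The calls and the mostly positive direction of the slopes depended on D8 and A4. Without both clones 13 of 38 slopes were positive, the median was −0.20 against 0.02 over all genes, and no member was called among 4 genes called in all. Bnip3 then had a slope of −0.03 ± 0.23, Ndrg1 of −0.26 ± 0.23, Ldha of 0.44 ± 0.33, Slc2a1 of 0.66 ± 1.18 and Hk2 of 2.34 ± 1.83. Those 5 clones cover a smaller range of Vegfa, from 30.8 to 57.2 CPM, and the standard errors were larger. At an unadjusted p under 0.05 there were then 4 positive slopes in 38 members, against 9.44% of all genes, with 2.92 ± 1.15 for Pfkfb3, 2.28 ± 0.92 for Ddit4, 1.13 ± 0.43 for Pfkl and 1.02 ± 0.36 for P4ha1, a catalytic subunit of collagen prolyl hydroxylase. There were 8 negative ones, against 7.99% of all genes, for Hk1, Pfkm, Pfkp, Aldoa, Tpi1, Car12, Bnip3l and P4ha2, another catalytic subunit, which had −1.12 ± 0.26 (adjusted p = 0.124). No member was called either without D8 (0 genes called in all), A4 (1), G7 (0), H12 (25) or Wdr34 clone 1 (0) on its own. When 1 clone or replicate number was left out, the slope of Bnip3 ran from 0.68 to 0.89 and that of Ndrg1 from 0.44 to 0.69. Without Wdr34 clone 3, 3 members (Ldha, Pgk1 and Slc2a1, among 33 genes in all) were called, and 1 (Ldha, among 170 genes) without Wdr60. Without A4 library 1 there were 5 (Bnip3, Hk2, Ldha, Plod2 and Slc2a1) among 334 genes, where all libraries gave 2 among 89, with a slope of 1.61 ± 0.29 for Slc2a1. The same 5 were called among 335 genes without library 2 of every clone, which leaves out the low library of Wdr60. Without library 1 of every clone 7 were called among 283 genes, and none among 30 without library 3 or among 27 without library 4. In A4 library 1 Slc2a1 (317 CPM), Hk2 (75.7) and Bnip3 (38.2) were above the mean of each of the other 5 clones, whereas Ldha (299) and Ndrg1 (335) were not. The summed collecting duct markers were highest in A4 (3735 CPM) and D8 (3596) and lowest in G7 (539). Pax2 and Hoxb7 of the same list ran the other way, highest in G7 (315 and 84.9 CPM). They were at 79.6 and 52.1 CPM in D8 and at 115 and 52.1 CPM in A4. The part of these markers in the slopes was not tested.

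**Figure D3:**
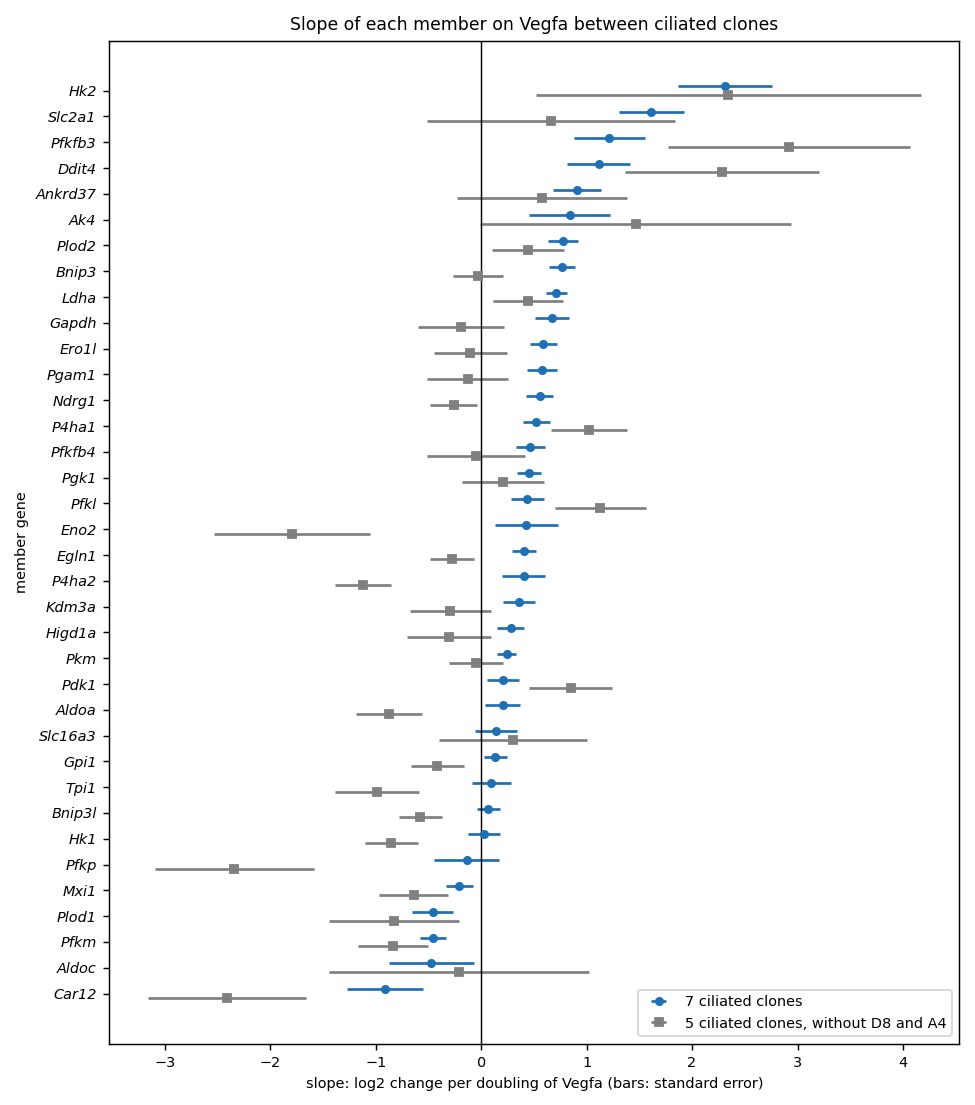
Slope on Vegfa (log2 change per doubling, ± SE) of 36 members over the 7 ciliated clones and over the 5 without D8 and A4. With D8 and A4 most slopes lie to the right of 0; without them 13 of 38 members measured are positive and the errors widen.

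In non-ciliated cells Vegfa was at 99.9 ± 10.9 CPM in AB, 63.9 ± 3.48 in control 1, 56.5 ± 3.83 in Wdr34, 48.9 ± 3.38 in control 3, 45.9 ± 1.73 in Wdr60 and 41.8 ± 1.54 in control 2. AB was the highest of the 6 clones in 10 of 37 members (27%), against 16.9% of all genes, namely Aldoa, Pfkl, Pfkp, Pdk1, Car12, Bnip3, Egln3, P4ha1, Ankrd37 and Ddit4. No slope on Vegfa was called by edgeR over these 6 clones, in 0% of 13405 genes. DESeq2 called 3 genes and no member, and 428 genes (3.19%) had an unadjusted p under 0.05. The members among these were Pdk1 with a slope of 0.87 ± 0.17, Bnip3 with 0.93 ± 0.20 and P4ha1 with 0.79 ± 0.22 (adjusted p = 0.976 each). Egln3, with 119 counts in AB, 27 in Wdr34 and at most 3 in any other clone, also had such a p, which is not read as a test. Pdk1 was at 88.9 ± 2.14 CPM in AB, 57.7 ± 1.72 in control 1, 55.6 ± 1.47 in Wdr34, 45.7 ± 2.91 in Wdr60, 44.5 ± 2.79 in control 2 and 37.7 ± 1.86 in control 3. Bnip3 was at 58.6 ± 8.25 CPM in AB, 40.7 ± 2.42 in control 1, 39.6 ± 1.75 in Wdr34, 29.7 ± 2.33 in control 2, 25.8 ± 3.85 in control 3 and 25.4 ± 6.34 in Wdr60. AB stood above the other 5 clones in both genes, and control 1 and Wdr34 followed within their spread of each other. Slopes were 0.52 ± 0.63 for Slc2a1, 0.54 ± 0.33 for Ldha, 0.50 ± 0.24 for Pgk1, 0.49 ± 0.44 for Ankrd37 and −0.19 ± 0.40 for Ndrg1. Without library 1 of every clone, among them that of AB, no gene was called either, and the slope was 0.85 for Pdk1 and 0.86 for Bnip3.

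As a description over these 6 clones, which share a state and had 15617398 to 21085697 counts per library, Pearson's r with Vegfa on the log2 scale was highest for Pdk1 (0.93), Bnip3 (0.93), Egln3 (0.87), P4ha1 (0.86) and Aldoa (0.77). It was lowest for Plod1 (−0.77), Eno2 (−0.67), Slc16a3 (−0.54), Hk1 (−0.31) and P4ha2 (−0.27). The median over the members was 0.21 against 0.03 over all genes. An r over 0.8 was found in 4 of 37 members, among them Egln3 with few counts outside AB, and in 1.82% of all genes. Without AB and control 2, the clones farthest from the median of Vegfa, r over the other 4 clones was 0.94 for Bnip3, 0.89 for Aldoa, 0.80 for Pdk1, 0.77 for P4ha1 and 0.45 for Egln3. It was −0.97 for Plod1 and −0.20 for P4ha2, and turned positive for Slc16a3 (0.99), Hk1 (0.94) and Eno2 (0.24). The median over the members was then 0.61, against −0.04 over all genes. The median, the value for Egln3 and the signs for Slc16a3, Hk1 and Eno2 thus depended on AB and control 2. Summed collecting duct markers were highest in AB (2658 CPM) and lowest in control 2 (514 CPM), with 2110 to 2612 CPM in the others. Pax2 and Hoxb7 of that list were highest in control 2 (280 and 55.9 CPM), and the part of these markers was not tested. Hk2 and Slc2a1, which were high together with Vegfa in D8 and A4, were highest here in controls 1 and 3 and not in AB.

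**Figure D4:**
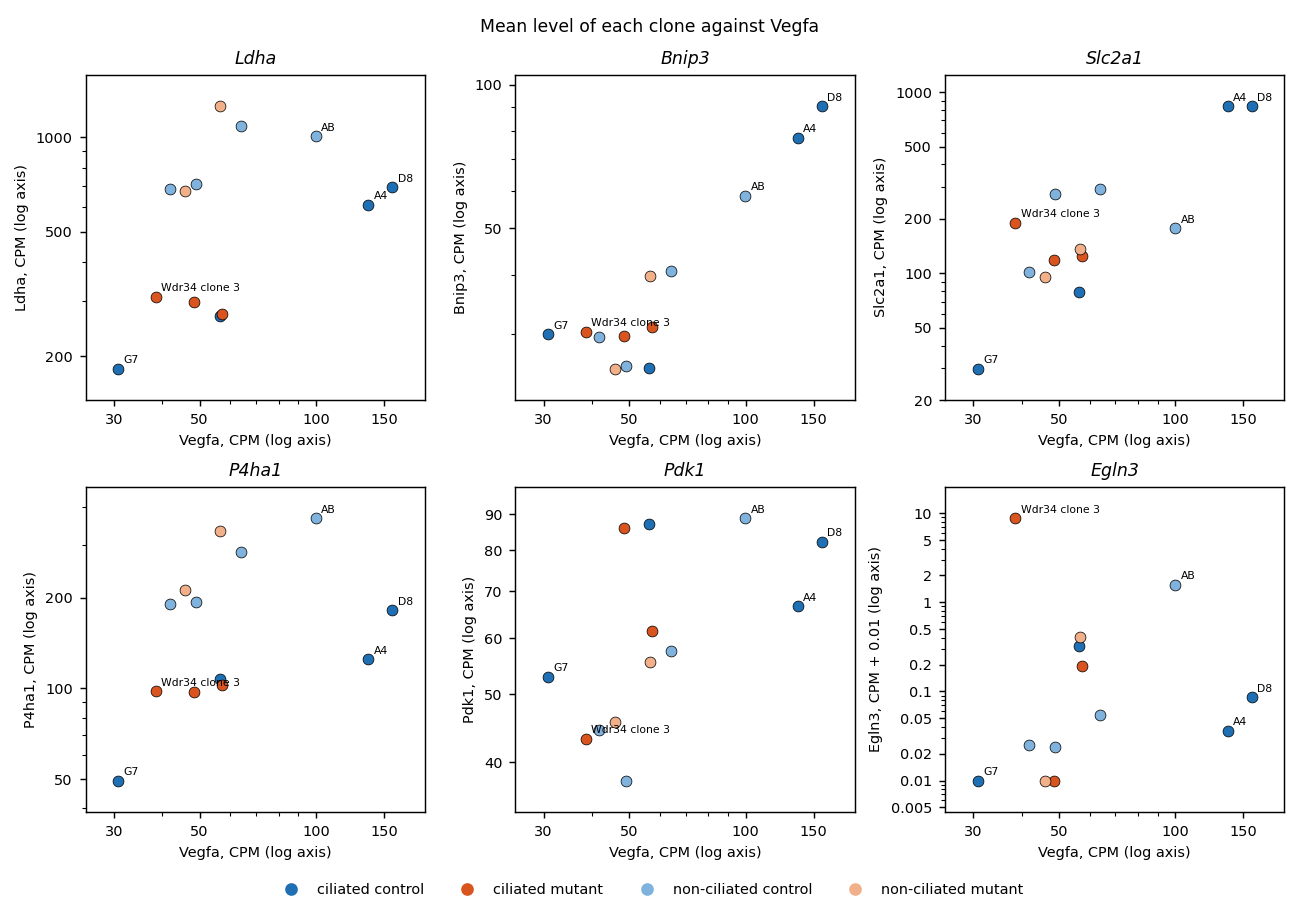
Clone means of 6 members against Vegfa (CPM, log axes) for ciliated and non-ciliated clones. Ldha, Bnip3 and Slc2a1 separate D8 and A4 from the other ciliated clones, while Pdk1 does not, and Egln3 is highest in ciliated Wdr34 clone 3, where Vegfa is at 38.5 CPM.

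Over all 13 clones, with state as a term, the slope of 6 of 38 members rose with Vegfa, against 0.555% of all 13700 genes, and none was called lower, against 0.365%. DESeq2 called 16 members higher (5.47% of all genes), and Pfkm and Plod1 lower (5.34%). The 6 were Bnip3 with 0.81 ± 0.10 (adjusted p = 0.00792), Ldha with 0.70 ± 0.11 (adjusted p = 0.0243), Ero1l, the oxidase of the endoplasmic reticulum, with 0.56 ± 0.11 (adjusted p = 0.0442), P4ha1 with 0.58 ± 0.11 (adjusted p = 0.0445), Slc2a1 with 1.5 ± 0.30 (adjusted p = 0.0445) and Plod2 with 0.72 ± 0.15 (adjusted p = 0.0454). Pgk1 was just outside with 0.47 ± 0.10 (adjusted p = 0.0511), as were Ankrd37 with 0.85 ± 0.20 and Hk2 with 2.14 ± 0.49 (adjusted p = 0.0573 each). Ndrg1 had 0.43 ± 0.17 and Pdk1 0.35 ± 0.14 (adjusted p = 0.154 each), Car9 −0.49 ± 0.70 (adjusted p = 0.700) and Egln3 −0.93 ± 2.09 (adjusted p = 0.813). Car9 and Egln3 had few counts in most clones, and their p-values are not read as a test. The fit includes the 7 ciliated clones of the slopes above and is not independent of them, and it treats the 13 as independent although clones may recur in both states. Without D8 and A4 no gene was called, and 16 of 38 members had a positive slope with a median of −0.08. No gene, and so no member, was called when either D8 or A4 alone was left out. Without other clones Bnip3 was called in all 11 fits, with 1 to 12 members called higher among 1 to 795 genes. The smallest counts of members were without G7 and without ciliated Wdr34 clone 1, and the largest without AB. In the fit without AB, Pfkm was also called lower. Without A4 library 1 there were 10 among 385 genes.

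The hydroxylase Egln3 and the anhydrase Car9 had another pattern and were close to 0 in most clones. Egln3, which marks hypoxia-inducible factor and is itself a widely used hypoxia gene, was at 8.79 ± 1.68 CPM in ciliated Wdr34 clone 3 (656 counts over 4 libraries). It was at most at 0.316 CPM in the other 6 ciliated clones, with no count in G7 and ciliated Wdr60. Against a floor of 3 counts over the clone, the level in Wdr34 clone 3 was at least 225-fold higher than in G7 and at least 218-fold higher than in Wdr60. In non-ciliated clones Egln3 was at 1.57 ± 0.394 CPM in AB (119 counts), 0.398 in Wdr34 and at most 0.0445 in the others, and at least 35.5-fold higher in AB than in Wdr60, which had no count. Car9, which sits at the cell surface and acidifies its surroundings, had 119 counts over all 52 libraries, of which 59 were in ciliated Wdr34 clone 3 (0.794 ± 0.207 CPM), and at most 11 in any other clone. Vegfa in Wdr34 clone 3 was at 38.5 CPM, next to the lowest of the ciliated clones. The fibroblast marker Dcn was also high in that clone, at 29.1 CPM, and its collecting duct markers summed to 1055 CPM, and their part in the levels of Egln3 and Car9 was not tested. Adm, the vasodilator peptide adrenomedullin, had 13 counts in all, and Eno1, the ubiquitous enolase, had 21. Neither passed the filter on low counts in any fit, Car9 did not pass it in the pooled comparisons of mutants with controls within a state or in the slopes over non-ciliated clones, and neither Car9 nor Egln3 passed it between the states. The near-identical Eno1b, chosen after its values were seen, had 1069201 counts, and how reads were split between the 2 symbols was not tested. Slc16a3, the lactate exporter, was between 0.368 and 0.931 CPM in all clones, and Aldoc between 0.240 and 1.30 CPM.

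Between the states, with the 8 controls taken as independent, 3 of 36 members were higher in ciliated than in non-ciliated controls, against 6.11% of all 13119 genes called higher, and none was lower, against 7.33%. Ndrg1 was at 977 ± 47.3 CPM in D8, 803 ± 348 in A4, 444 ± 8.11 in G7 and 336 ± 13.9 in H12, and at 182 ± 4.21 in non-ciliated control 2, 164 ± 6.10 in AB, 117 ± 1.96 in control 3 and 95.8 ± 2.30 in control 1. The groups did not overlap, and Ndrg1 was higher by a log2 fold change of 2.18 ± 0.38 (SE, edgeR adjusted p = 0.0136). Mxi1 was higher by 1.08 ± 0.25 (adjusted p = 0.0270), with 136, 149.6, 162 and 263 CPM in ciliated and 58.9, 76.0, 89.5 and 105 CPM in non-ciliated controls. Bnip3l, the second mitophagy receptor of this family, was higher by 0.61 ± 0.17 (adjusted p = 0.0462), with 132 to 228 CPM against 117 to 127 CPM. These 3 members had clone means that did not overlap, as had 10.3% of all genes in this direction. P4ha1 and Pkm were lower in every ciliated control without passing the test, against 11.7% of all genes, with log2 fold changes of −1.18 ± 0.39 (adjusted p = 0.0768) and −0.61 ± 0.20 (adjusted p = 0.0725). Ldha had −1.0 ± 0.42 (adjusted p = 0.139), with 183, 268, 608 and 692 CPM in ciliated and 685, 707, 1005 and 1082 CPM in non-ciliated controls. Eno2 had 2.02 ± 0.58 (adjusted p = 0.0530). Vegfa had 0.56 ± 0.51 (adjusted p = 0.482), Slc2a1 1.05 ± 0.94 (adjusted p = 0.476), Pdk1 0.31 ± 0.29 (adjusted p = 0.485), Pgk1 −0.39 ± 0.31 (adjusted p = 0.414), Bnip3 0.51 ± 0.46 (adjusted p = 0.480) and Ankrd37 0.72 ± 0.60 (adjusted p = 0.445). Over the members 17 of 36 differences were positive with a median of −0.03. DESeq2 called 5 members higher (12.3% of all genes), Eno2 and the histone demethylase Kdm3a beside the 3, and P4ha1 and Pkm lower (12.6%). When 1 of the 8 control clones was left out, Ndrg1 lost its call without non-ciliated control 1, Mxi1 without A4, H12 or non-ciliated control 1 or 3, and Bnip3l without any of the clones but H12. Bnip3l also lost it without library 1 or library 4 of every clone and with a filter of 1 count in any clone (adjusted p = 0.0578). Without A4 library 1 the 3 calls held, Ndrg1 with 2.27 (adjusted p = 0.0151).

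No member differed between mutant and control clones in ciliated cells by edgeR, as no gene was called (0% of 13243). At an unadjusted p under 0.05 there were 148 genes and 1 member, and DESeq2 called 3 genes and no member. The member was Pfkfb4, a regulator of phosphofructokinase, with −0.77 ± 0.30 (adjusted p = 0.9998). It was at 4.48, 5.30 and 5.88 CPM in the mutants and 6.23, 7.01, 10.9 and 11.3 CPM in the controls, the only member whose groups did not overlap. Such a gap was found in 0.853% of all genes for lower and in 1.25% for higher levels in the mutants. The differences of 32 of 37 members were negative with a median of −0.32 against −0.01 over all genes. D8 and A4 are both controls, so that the spread among controls was wide. Slc2a1 averaged 145 ± 40.2 CPM (SD over 3 clones) in mutants and 447 ± 455 (SD over 4 clones) in controls, with a log2 fold change of −1.63 ± 1.08. Bnip3 averaged 30.4 ± 0.645 against 55.8 ± 32.8 CPM (−0.88 ± 0.47), Ndrg1 401 ± 45.6 against 640 ± 301 CPM (−0.68 ± 0.37) and Ldha 294 ± 18.8 against 438 ± 250.1 CPM (−0.58 ± 0.45). Vegfa had −0.99 ± 0.54, Pdk1 −0.19 ± 0.27, Pgk1 −0.28 ± 0.34, Ankrd37 −0.59 ± 0.69 and Egln3 4.80 ± 2.10, the last from Wdr34 clone 3, without which it was −0.16. Leaving out any clone, any replicate number or A4 library 1 left no member called.

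In non-ciliated cells no gene was called between mutants and controls either (0% of 13406), while 582 genes and no member had an unadjusted p under 0.05, and DESeq2 called 53 genes and no member. Slc2a1 averaged 116 ± 29.3 CPM in 2 mutant clones and 212 ± 89.4 in 4 controls (−0.86 ± 0.44, adjusted p = 0.976). Log2 fold changes were −0.30 ± 0.36 for Vegfa, 0.17 ± 0.31 for Ldha, −0.24 ± 0.36 for Bnip3, 0.07 ± 0.39 for Ndrg1, −0.16 ± 0.35 for Pdk1, 0.07 ± 0.26 for Pgk1, 0.05 ± 0.43 for Ankrd37 and −1.01 ± 2.23 for Egln3. Both mutants lay above all controls in Pkm, against 6.65% of all genes. Both lay below them in Aldoc and Bnip3l, against 6.42%. The difference of the mutant effect between the states was called for 0% of 13994 genes by edgeR and for 1 gene and no member by DESeq2. It compares unlike sets of alleles, as the study had no non-ciliated Wdr34 p.Gly394Ser clone. An unadjusted p under 0.05 was reached by 136 genes. Car9 was the only member with such a p, which is not read as a test, since 59 of its 119 counts were in ciliated Wdr34 clone 3 and it did not pass the filter in either fit of mutants against controls. This difference was −0.76 ± 1.32 for Slc2a1, −0.76 ± 0.58 for Ndrg1, −0.75 ± 0.62 for Ldha, −0.64 ± 0.66 for Bnip3, −0.64 ± 0.89 for Ankrd37, −0.34 ± 0.48 for Pgk1, −0.02 ± 0.47 for Pdk1, 5.81 ± 3.58 for Egln3 and −0.69 ± 0.72 for Vegfa.

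**Figure D5:**
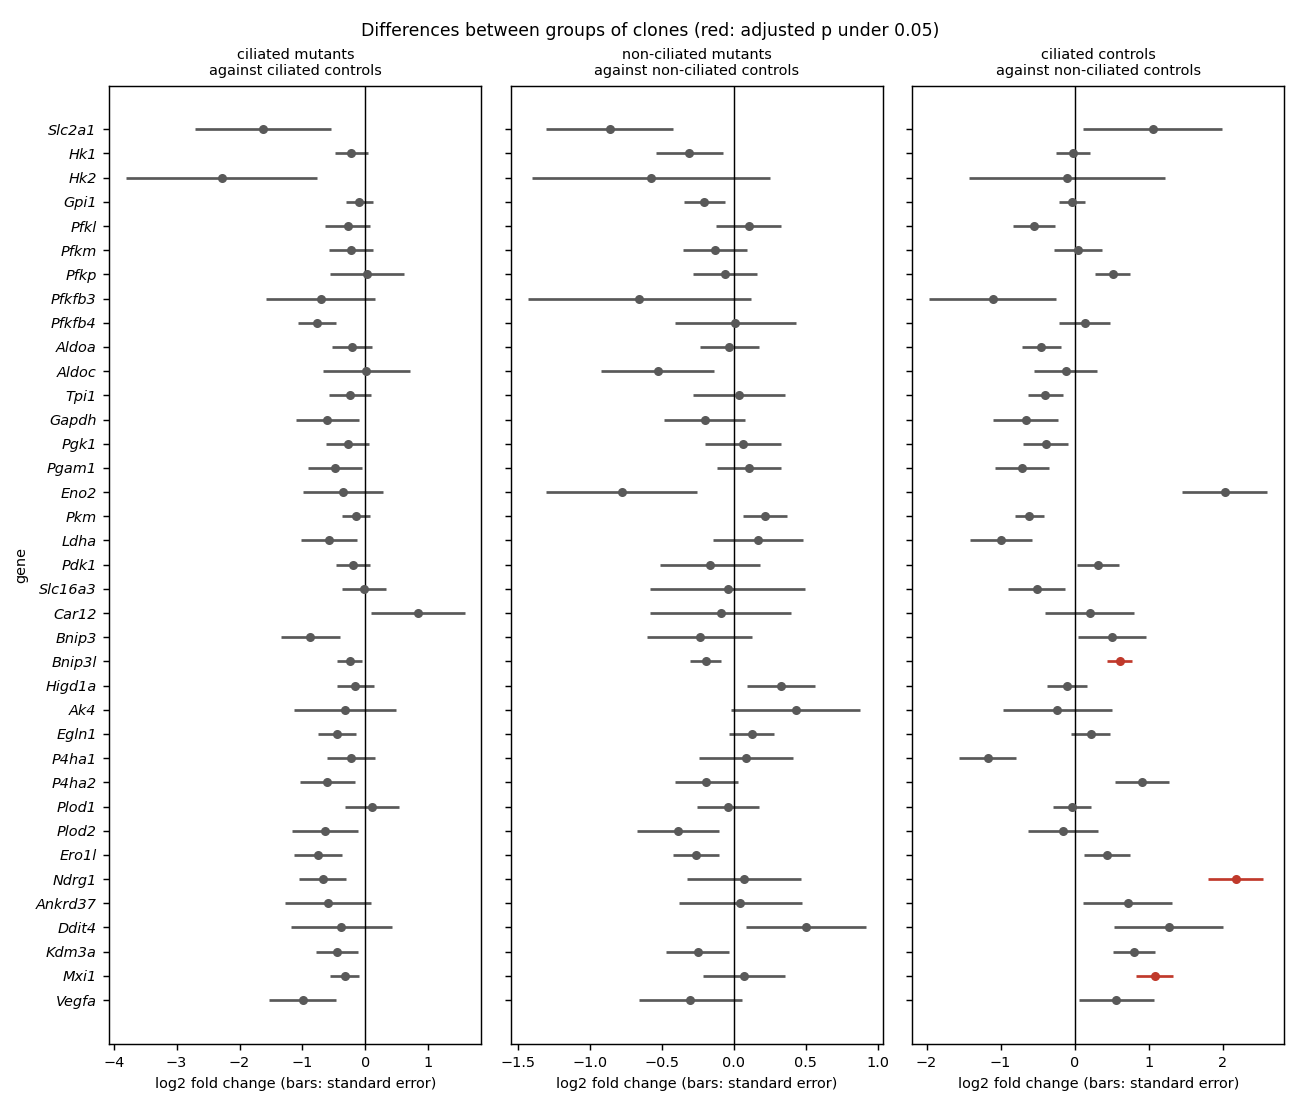
Log2 fold change ± SE of 36 members for ciliated mutants against controls, non-ciliated mutants against controls, and ciliated against non-ciliated controls, with clones as samples. Ndrg1, Mxi1 and Bnip3l, in red in the panel of the states, are the members called.

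Each mutant clone was also set against the controls of its state, with the spread taken from the control clones and the lone clone assumed to vary like them. No gene was called in any of the 5 fits (0% of 14219 genes in ciliated and of 13909 in non-ciliated cells). DESeq2 called 10, 87 and 28 genes in ciliated Wdr34 clone 1, Wdr34 clone 3 and Wdr60 and 19 and 64 in non-ciliated Wdr34 and Wdr60, with no member among them. The members at an unadjusted p under 0.05 were Pfkp, the platelet subunit of phosphofructokinase, with −1.56 ± 0.46 in Wdr34 clone 1 and 1.08 ± 0.38 in Wdr34 clone 3, and Gapdh with −0.73 ± 0.26 in non-ciliated Wdr60. Egln3 and Car9 also had such a p in Wdr34 clone 3, where they were high, but neither passed the filter on low counts among the control clones alone, and this p is not read as a test. There were 86, 640 and 197 such genes in the ciliated clones in the same order, and 278 and 400 in the non-ciliated ones. The clones of Wdr34 thus had Pfkp values on opposite sides of the controls, at 28.3 ± 1.03 and 176 ± 7.08 CPM against 50.1 to 102 CPM. Member medians were −0.52, −0.23 and −0.58 in the ciliated clones and −0.02 and −0.30 in the non-ciliated ones, against −0.05, −0.04, −0.05, −0.02 and −0.02 over all genes.

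Other genes of the pathway were taken from 3 lists. Of 9 regulators of hypoxia-inducible factor, 8 were tested over the ciliated clones and none had a slope on Vegfa that passed. Hif1a, the oxygen-regulated alpha subunit, was at 203 to 368 CPM over the 13 clones, lowest in H12 and highest in G7, while Epas1, the alternative alpha subunit, was at most at 1.08 CPM. Egln2, another prolyl hydroxylase, fell with Vegfa over all 13 clones, with a slope of −0.37 ± 0.08 (adjusted p = 0.0488), against 0.365% of all genes called lower. Vhl, which targets the alpha subunits for destruction, was higher in ciliated controls by 0.86 ± 0.23 (adjusted p = 0.0433), against 6.11% of all genes called higher. Of 24 further targets, 19 were tested over the ciliated clones, and 1 passed, Hmox1, the heme oxygenase (0.521% of all genes called higher), with 2.0 ± 0.29 (adjusted p = 0.0465). It was at 1146 CPM in D8, 868 in A4 and 32.7 to 149.9 in the other 5 ciliated clones. The median slope of those 19 was 0.28. Over all 13 clones 2 of 19 were called higher, Hmox1 (1.79 ± 0.29) and the mitochondrial Fam162a (0.49 ± 0.10), against 0.555% of all genes. These calls and that of Egln2 were lost without D8 and A4, where no gene was called. Of 20 other genes of glycolysis and pyruvate, 18 were tested over the ciliated clones, none passed and the median slope was −0.15. Between the states, the targets Ccng2 (1.06 ± 0.20) and Rora (3.12 ± 0.54) were higher in ciliated controls (6.11% of all genes), as was the mutase Pgam2 (1.47 ± 0.36), and Bpgm (−0.82 ± 0.21) and Pdk3 (−0.98 ± 0.20) were lower (7.33% of all genes). These were 2 of 19 targets, and 1 higher and 2 lower of 15 other genes of glycolysis and pyruvate tested there.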

How the data were processed

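RNA of 13 clones was sequenced in 52 libraries. The authors mapped the reads to GRCm38/mm10 (Rsubread, R 3.4.4), and featureCounts gave the deposited raw counts of each gene symbol, 1 file per library. They ran DESeq2 1.18.1 and set all 3 mutants of the ciliated state against 3 controls. The control left out, and whether libraries or clones were the samples of the fits, are not given in the sources used here. Strand setting and treatment of multi-mapping reads are not given in the sources used here. The tools used here were edgeR 4.0.16, DESeq2 1.42.0 and limma 3.58.1, run in R 4.3.3.

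The study calls the libraries of a clone technical replications, so their counts were summed, and clones were the samples of edgeR's quasi-likelihood F test (filterByExpr, TMM, estimateDisp, glmQLFit, glmQLFTest, 2-sided). P-values were adjusted by Benjamini-Hochberg over all genes tested, and genes were called at an adjusted p under 0.05. The SE is the log2 fold change divided by the square root of F. Vegfa entered the slopes as log2 CPM with a prior count of 2. The labels name no separate cultures of a clone, so that p-values measure the spread between clones, each grown from 1 cell. The test of differences among clones took libraries as samples. The fits of mutants against controls, of the states and of the slope over ciliated clones were tested on simulated data. The simulation held the dispersion of each gene at or below the median over genes. It therefore does not cover genes that vary more than that between clones. Depth ran from 14816218 to 28084979 counts per library, and counting floors cover counting error only.

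The members and lists were chosen with earlier results of these data known. All 40 members are accounted for. Named with values are members called in a comparison (at most 12 each), 10 widely used hypoxia genes (Slc2a1, Pdk1, Ldha, Pgk1, Car9, Ndrg1, Bnip3, Egln3, Ankrd37 and Adm) with Vegfa, the 8 members with the widest range among clones, and the 5 highest and 5 lowest in their relation with Vegfa. The alternatives were RLE size factors, DESeq2, other filters on low values (1 count in any clone, 10 in every clone), libraries as samples with and without the replicate number as a block, a log2 limit of 1, and leaving out each clone or replicate number. Leaving out A4 library 1, or D8 and A4, was chosen after seeing the data. Promoters were read from RefSeq tables of GRCm38.p6.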

Additional observations from a re-analysis of the deposited data

Results flagged for a closer look

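In groups of 4 control clones, 3 member levels stood out because the gap to the nearest clone took up more of the range of log2(CPM + 0.1) than Dixon's 95% critical value for 4 samples. On the CPM scale only Egln3 passed it (0.980), with 0.783 for Pfkl and 0.786 for Tpi1. Chance marks about 1 in 20 groups, and 75 groups were examined. Pfkl, the liver subunit of phosphofructokinase, was at 107 CPM in ciliated control G7, with 243 CPM in the next clone and 281 in the highest. Tpi1, the triosephosphate isomerase, was at 338 CPM in ciliated control H12, with 592 CPM in the next clone and 662 in the highest. Egln3 was at 1.57 CPM in non-ciliated control AB, with 0.0445 CPM in the next clone. G7 also had the lowest summed collecting duct markers of the ciliated controls, at 539 CPM, but the highest Pax2 (315 CPM) and Hoxb7 (84.9 CPM). The part of these markers in the level of Pfkl was not tested.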

How the results depend on the processing

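The precision is limited by the number of clones, with 2 to 4 in each group, and no slope of a member on Vegfa was called without D8 and A4. Tests with libraries as samples treat the libraries of a clone as independent, so their larger counts describe these clones and not the genotype. Egln3, Car9, Adm and Eno1 have too few counts in most clones for a stable fold change. Of the values of single genes under the alternatives, 1083 kept direction and side of the threshold, 90 lost and 35 gained the call, and 35 changed sign, each of an uncalled value or of Bnip3. Of the counts of calls, 465 were within 1.5 times the reported count and 139 were not. The causes were not tested.

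For ciliated mutants against controls, members called lower were 0, with 3 for libraries as samples and 1 with the replicate block, and genes called were 0, with 3 by DESeq2, 379 for libraries and 276 with the block. The 3 were Bnip3, Ero1l and Pfkfb4. For non-ciliated mutants, libraries as samples gave 1 member higher and 4 lower (the block 1 and 3), and genes called were 53 by DESeq2, 1803 for libraries and 1462 with the block. For the interaction of genotype and state, libraries gave 1 member higher, and genes called were 1 by DESeq2, 237 for libraries and 173 with the block.

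For ciliated against non-ciliated controls, members called higher were 3, with 5 by DESeq2, 10 for libraries, 9 with the block and 0 to 5 when a clone or replicate was left out; members called lower were 0, with 2 by DESeq2, 9 for libraries and 9 with the block. Genes called were 1764, with 3260 by DESeq2, 7221 for libraries, 7250 with the block, 660 with a log2 limit of 1 and 288 to 2206 when leaving out.

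For slopes over ciliated clones, members called higher were 2, with 17 by DESeq2, 5 with at least 10 counts in every clone, 0 without D8 and A4 and 0 to 7 when leaving out; members called lower were 2 by DESeq2. Genes called were 89, with 1759 by DESeq2, 301 with at least 10 counts, 4 without D8 and A4 and 0 to 335 when leaving out. For slopes over non-ciliated clones, DESeq2 called 3 genes. For slopes over all clones, members called higher were 6, with 16 by DESeq2, 0 without D8 and A4 and 0 to 12 when leaving out, and members called lower were 2 by DESeq2 and 0 to 1 when leaving out. Genes called were 126, with 1480 by DESeq2, 307 with at least 10 counts, 0 without D8 and A4 and 0 to 795 when leaving out. At least 10 counts in every clone gave 9 members in that fit, within the limit of 1.5 times.

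For single mutant clones, libraries as samples gave 0 members higher and 2 lower in ciliated Wdr34 clone 1 (the block 2), 5 and 2 in Wdr34 clone 3 (the block 5 and 2), 3 lower in Wdr60 (the block 3), 6 and 3 in non-ciliated Wdr34 (the block 5 and 2), and 1 and 10 in non-ciliated Wdr60 (the block 1 and 8). Genes called by DESeq2, for libraries and with the block were 10, 544 and 374 in Wdr34 clone 1, 87, 3172 and 2885 in Wdr34 clone 3 (0 to 2 when leaving out), 28, 1602 and 1300 in ciliated Wdr60, 19, 1572 and 1161 in non-ciliated Wdr34, and 64, 2044 and 1565 in non-ciliated Wdr60. Without the limit on the ratio, differences among clones were called for 11436 genes in ciliated cells, and for 10827 genes and 36 members in non-ciliated cells.

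Replicate numbers do not pair the libraries: deviations of same-numbered libraries had median correlations of −0.0195, 0.00317, −0.00633 and −0.0206, the lowest single one was −0.545, and 12 of 52 libraries correlated best with their own number.

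Values that changed sign when a clone or replicate was left out spanned, for ciliated mutants, −0.47 to 0.020 (Pdk1) and −0.16 to 5.38 (Egln3). For non-ciliated mutants they spanned −0.33 to 0.12 (Pdk1), −0.37 to 0.56 (Ldha), −0.38 to 0.40 (Pgk1), −0.67 to 0.56 (Ndrg1), −0.61 to 0.060 (Bnip3) and −0.51 to 0.45 (Ankrd37). For the difference between states they spanned −0.31 to 0.20 (Pdk1) and −0.68 to 0.088 (Pgk1). Slopes on Vegfa spanned −1.93 to 0.0092 for Ndrg1 in non-ciliated clones and −2.58 to 2.19 for Egln3 in all clones. Without D8 and A4 the slope over ciliated clones was −0.031 for Bnip3 and −0.26 for Ndrg1, and the slope over all clones was −0.22 for Ndrg1 and 3.22 for Egln3.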
